A study of Mus musculus with 37 samples.

Results

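The antioxidant response genes described here are Nfe2l2 and 9 of its classical targets, Hmox1, Nqo1, Gclc, Gclm, Srxn1, Txnrd1, Gsta4, Gstm1 and Slc7a11. They were listed by name as the factor and its known targets, without a threshold on their values, and all 10 were found among the 21975 gene identifiers of the tables. Expression was measured by RNA-seq in astrocytes taken from the hippocampus with magnetic beads against the astrocyte surface antigen ACSA-2. The animals were male wild-type mice examined 4 months after surgery, of strain CD1 by the methods of the study, where the labels read CD31. Injured mice had received a controlled cortical impact (CCI), which is a piston strike to the exposed cortex, and sham mice had the craniectomy without the strike. All mice, sham included, carried recording electrodes. Injured mice with repeated epileptic episodes on the EEG were called PTE+ (post-traumatic epilepsy), and injured mice without them PTE-. The hemisphere of the surgery is the ipsilateral one. There were 37 libraries from 20 mice: 5 PTE+, 10 PTE- and 5 sham contralateral libraries, and 4 PTE+, 8 PTE- and 5 sham ipsilateral libraries, with both hemispheres for 17 mice. PTE status is an outcome that was observed, not assigned, and no uninjured mouse without surgery was among the samples analysed.

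NRF2, the protein of Nfe2l2, is held in the cytoplasm and degraded with the help of KEAP1 while a cell is unstressed. When oxidants or electrophiles modify KEAP1, NRF2 escapes, enters the nucleus, pairs with a small MAF protein and binds antioxidant response elements near its target genes. Because this control acts on the NRF2 protein, the level of Nfe2l2 mRNA is not a measure of NRF2 activity. Astrocytes are known for a strong NRF2 response and for supplying neighbouring neurons with glutathione precursors.

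The genes lie on 5 chromosomes of the mouse genome (GENCODE M21 annotation, GRCm38). Nfe2l2 is at chr2:75675513-75704641 on the minus strand and Srxn1 at chr2:152105516-152111376 on the plus strand. Chromosome 3 holds Slc7a11 (chr3:49892526-50443614, minus), Gstm1 (chr3:108012255-108017973, minus) and Gclm (chr3:122245557-122270732, plus). Hmox1 (chr8:75093621-75100589, plus) and Nqo1 (chr8:107388225-107403206, minus) are on chromosome 8. Gclc (chr9:77754535-77794485, plus) and Gsta4 (chr9:78182774-78209349, plus) are on chromosome 9, and Txnrd1 is at chr10:82833951-82897712 on the plus strand. All are protein-coding genes.

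Since NRF2 acts through the antioxidant response element, the short stretches that hold its core are shown. The letters TGACNNNGC, where N is any base, were searched on both strands of RefSeq promoter windows (GRCm38.p6) that run from 250 bases before to 50 bases after each transcription start. Windows were found for 7 of the 10 genes. The core was present in a window of Nfe2l2, Srxn1, Gclm and Txnrd1, that is in 4 of 7 genes and in 4 of their 10 windows, and it was not in the windows of Slc7a11, Gstm1 and Nqo1. It occurs in 12.4% of all 32851 windows and in a window of 14% of the 27025 genes. Each stretch below is read 5′ to 3′ along the strand of its gene, and the capitals mark the 9 bases that match, which for Srxn1, Gclm and Txnrd1 match on the opposite strand.
Nfe2l2: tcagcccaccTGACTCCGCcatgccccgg
Srxn1: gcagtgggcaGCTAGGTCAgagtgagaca
Gclm: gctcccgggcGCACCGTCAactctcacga
Txnrd1: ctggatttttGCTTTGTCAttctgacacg
The stretch of Nfe2l2 is chr2:75704885-75704913, that of Srxn1 chr2:152105542-152105570, that of Gclm chr3:122245413-122245441 and that of Txnrd1, before 1 of its 3 listed starts, chr10:82859104-82859132. The Srxn1 match lies 28 to 36 bases after the start, inside the transcript, and the Gclm match ends 126 bases before it. A match of letters describes the sequence and does not show that NRF2 binds there.

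The levels of the 10 genes spanned more than 2 orders of magnitude. In TPM, the number of transcripts per fixed total after correction for transcript length, which allows genes to be compared, Gstm1 had a median of 5619 over the 37 libraries (range 3727 to 9125). Gstm1 encodes a cytosolic glutathione S-transferase, an enzyme that joins glutathione to electrophiles, and it ranked between 5th and 17th of all 21975 genes in every library. It held a median of 55.0% of the summed TPM of 22 glutathione S-transferase genes, with a range of 47.7% to 65.3%. Near-identical Gstm paralogs share sequence with Gstm1, so how the counting divided reads between them is uncertain. Gsta1, Gsta2 and Gsta3 had medians of 0, 0 and 0.15 TPM, and whether Gsta4 shares reads with them was not tested.

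**Figure D1:**
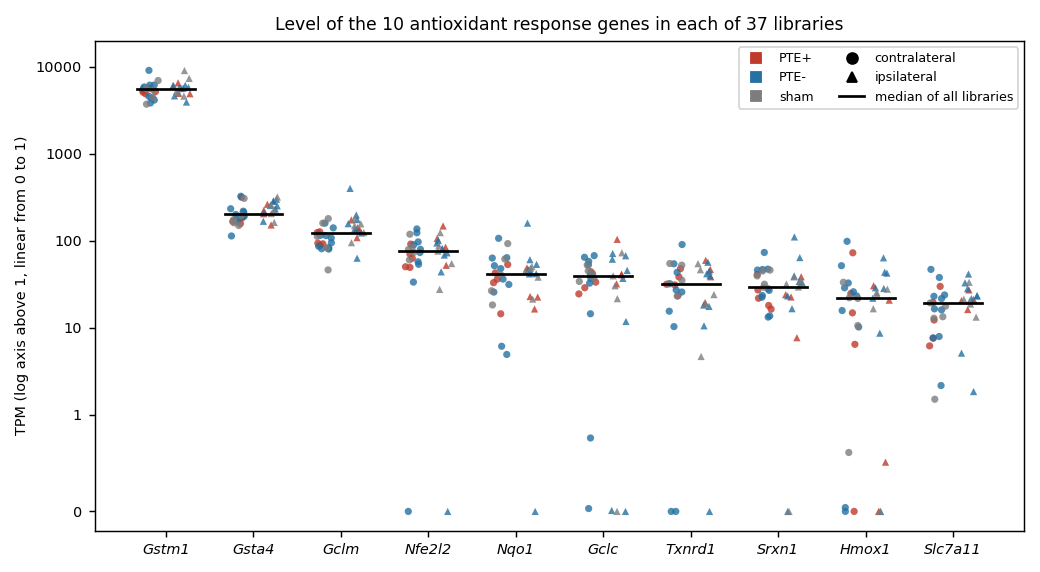
TPM of each gene in each library, on a log axis above 1 and a linear axis from 0 to 1; circles are contralateral and triangles ipsilateral libraries, colours give the group and black lines the median of all 37 libraries. Gstm1, Gsta4, Gclm and Slc7a11 were detected in every library, while the other 6 genes have libraries at or near 0.

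Below Gstm1 the order was Gsta4 (median 206.0 TPM), Gclm (124 TPM), Nfe2l2 (76.3 TPM), Nqo1 (41.9 TPM), Gclc (39.6 TPM), Txnrd1 (32.1 TPM), Srxn1 (29.5 TPM), Hmox1 (22.2 TPM) and Slc7a11 (19.5 TPM). The upper part of this order was steady between libraries. Gstm1 was above Gsta4 in 37 of 37 libraries, Gsta4 above Gclm in 35, Gclm above Nfe2l2 in 34 and Nfe2l2 above Nqo1 in 31. These 4 genes also came first, in this order, by their medians in each of the 6 groups. From Nqo1 downwards the order was less steady, and it was not tested. Nqo1 exceeded Gclc in 16 of 37 libraries, Gclc exceeded Txnrd1 in 23, Txnrd1 exceeded Srxn1 in 21, Srxn1 exceeded Hmox1 in 27 and Hmox1 exceeded Slc7a11 in 21.

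Nfe2l2, the transcription factor, had group means between 65.1 TPM (contralateral PTE+) and 97.9 TPM (ipsilateral PTE+). The 5 contralateral PTE+ libraries held 49.5, 50.4, 63.1, 70.5 and 91.8 TPM, and the 5 contralateral sham libraries 60.3, 73.7, 79.5, 85.0 and 119 TPM. Contralateral PTE- libraries ran from 0 through a median of 76.7 to 137 TPM. The groups overlap, and the PTE+ values all lie inside the PTE- range. On the ipsilateral side the 4 PTE+ libraries held 52.4, 84.5, 107 and 148 TPM, the 5 sham libraries 27.7, 54.8, 76.3, 87.6 and 124 TPM, and the PTE- libraries ran from 0 through a median of 76.4 to 101 TPM. Here the highest value of all belonged to PTE+ mouse a9_19, and again the groups overlap. That library lacked 4.10% of abundant genes, as described below. Without the libraries that lacked over 2% of them, the ipsilateral means were 81.1 TPM in PTE+ (n = 3), 74.6 TPM in PTE- (n = 6) and 85.75 TPM in sham libraries (n = 4).

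Glutathione synthesis is represented by 3 genes. Slc7a11 encodes the cystine and glutamate exchanger that brings in the cystine for glutathione, Gclc the catalytic subunit of glutamate-cysteine ligase, the first and rate-limiting enzyme, and Gclm the subunit that modifies it. Gclm was above Gclc in all 37 libraries, by a median ratio of 2.77 in TPM over the 32 libraries with Gclc at 1 TPM or more. Gclm held 89.0, 92.5, 94.0, 124 and 127 TPM in contralateral PTE+ libraries, and 46.3, 83.0, 113, 159.9 and 180.2 TPM in contralateral sham libraries. Its PTE- libraries there ran from 80.4 through a median of 101 to 159.7 TPM, so the PTE+ values sit inside both other ranges. On the ipsilateral side Gclm held 109, 134, 142 and 174 TPM in PTE+ libraries and 95.3, 125, 149, 157 and 180.1 TPM in sham libraries, and PTE- libraries ran from 63.2 through 147 to 401 TPM. The value of 401 TPM came from mouse a8_11, whose library is described below.

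Gclc was lower and more variable. Contralateral PTE+ libraries held 34.6 ± 8.37 TPM (SD, n = 5), PTE- libraries 36.9 ± 25.0 TPM (SD, n = 10) and sham libraries 42.2 ± 7.20 TPM (SD, n = 5). Ipsilateral PTE+ libraries held 54.5 ± 33.3 TPM (SD, n = 4), PTE- libraries 36.9 ± 29.7 TPM (SD, n = 8) and sham libraries 32.9 ± 26.7 TPM (SD, n = 5). The ipsilateral PTE+ mean rests on 1 library at 104 TPM, with the other 3 between 32.02 and 41.4 TPM. Slc7a11 held 15.1 ± 9.79, 20.4 ± 13.8 and 12.98 ± 6.98 TPM (SD) in contralateral PTE+, PTE- and sham libraries, and 21.3 ± 4.54, 22.2 ± 13.3 and 21.4 ± 7.37 TPM in ipsilateral ones, with n as for Gclc. The 3 ipsilateral means of Slc7a11 lie within 1 TPM of each other.

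The transferases were the steadiest of the genes. Gstm1 held 4909, 5121, 5189, 5352 and 5619 TPM in contralateral PTE+ libraries and 3727, 4449, 5451, 5630.2 and 6975 TPM in contralateral sham libraries, and the PTE- libraries ran from 3850.2 through 5663 to 9125 TPM. The 5 PTE+ mice were close together, with an SD of 5.07% of their mean against 27.3% for PTE- and 23.6% for sham mice. Part of the PTE- spread came from libraries that lack genes, as described below. Without them PTE- libraries held 5554 ± 686 TPM (SD, n = 5) and sham libraries 5151 ± 1407 TPM (SD, n = 4). The PTE+ libraries, all of them kept, held 5238 ± 266 TPM (SD, n = 5). Whether the spread differs between groups was not tested. On the ipsilateral side the values were 4918, 4962, 6049 and 6549 TPM in PTE+, 3942 to 6148 TPM with a median of 5742 in PTE-, and 4615, 5135, 5275, 7382 and 9081 TPM in sham libraries. Gsta4, whose enzyme conjugates the lipid peroxidation product 4-hydroxynonenal, held 203 ± 65.2 (n = 5), 204 ± 54.1 (n = 10) and 198 ± 63.7 TPM (SD, n = 5) in contralateral PTE+, PTE- and sham libraries. Its ipsilateral means were 211 ± 46.2 (n = 4), 249 ± 44.5 (n = 8) and 235 ± 58.9 TPM (SD, n = 5) in the same order.

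Txnrd1 and Srxn1 belong to the thioredoxin branch. Thioredoxin reductase 1 recharges thioredoxin with electrons from NADPH, and sulfiredoxin repairs overoxidized peroxiredoxins. Srxn1 held 16.4, 18.1, 21.9, 27.3 and 41.1 TPM in contralateral PTE+ libraries against 29.2, 31.7, 39.5, 45.0 and 46.1 TPM in sham libraries. Here 4 of 5 PTE+ values lie below every sham value, and the PTE- libraries, from 13.3 through 27.5 to 73.6 TPM, span both groups. On the ipsilateral side Srxn1 held 7.70, 22.6, 24.1 and 38.6 TPM in PTE+ and 0, 29.5, 31.9, 34.5 and 38.5 TPM in sham libraries, with PTE- libraries from 0 through 33.7 to 111 TPM. Txnrd1 held 34.5 ± 9.20 (n = 5), 29.97 ± 27.7 (n = 10) and 39.6 ± 13.7 TPM (SD, n = 5) in contralateral PTE+, PTE- and sham libraries, and 41.2 ± 16.9 (n = 4), 28.7 ± 19.8 (n = 8) and 29.8 ± 20.5 TPM (SD, n = 5) in ipsilateral ones.

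Nqo1 encodes a quinone reductase, and Hmox1 encodes heme oxygenase 1, which breaks down heme and is strongly inducible. Nqo1 held 36.0 ± 14.3 (n = 5), 43.9 ± 30.4 (n = 10) and 48.1 ± 30.03 TPM (SD, n = 5) in contralateral PTE+, PTE- and sham libraries. In the ipsilateral hippocampus it held 16.5, 22.6, 22.9 and 48.8 TPM in PTE+ and 21.4, 38.2, 45.7, 48.6 and 50.6 TPM in sham libraries, while PTE- libraries ran from 0 through 44.7 to 159.9 TPM. Of the 4 PTE+ values, 3 lie near or below the lowest sham value. Hmox1 varied most: over all libraries its SD was 91.6% of its mean, against 21.5% for Gstm1, 25.2% for Gsta4 and between 43.6% and 67.2% for the other 7 genes. Contralateral PTE+ libraries held 0, 6.46, 14.9, 24.8 and 72.9 TPM of Hmox1 and sham libraries 0.61, 10.6, 21.8, 22.2 and 33.4 TPM. Ipsilateral PTE+ libraries held 0, 0.51, 20.8 and 30.5 TPM and sham libraries 0, 16.6, 24.3, 25.6 and 27.8 TPM.

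**Figure D2:**
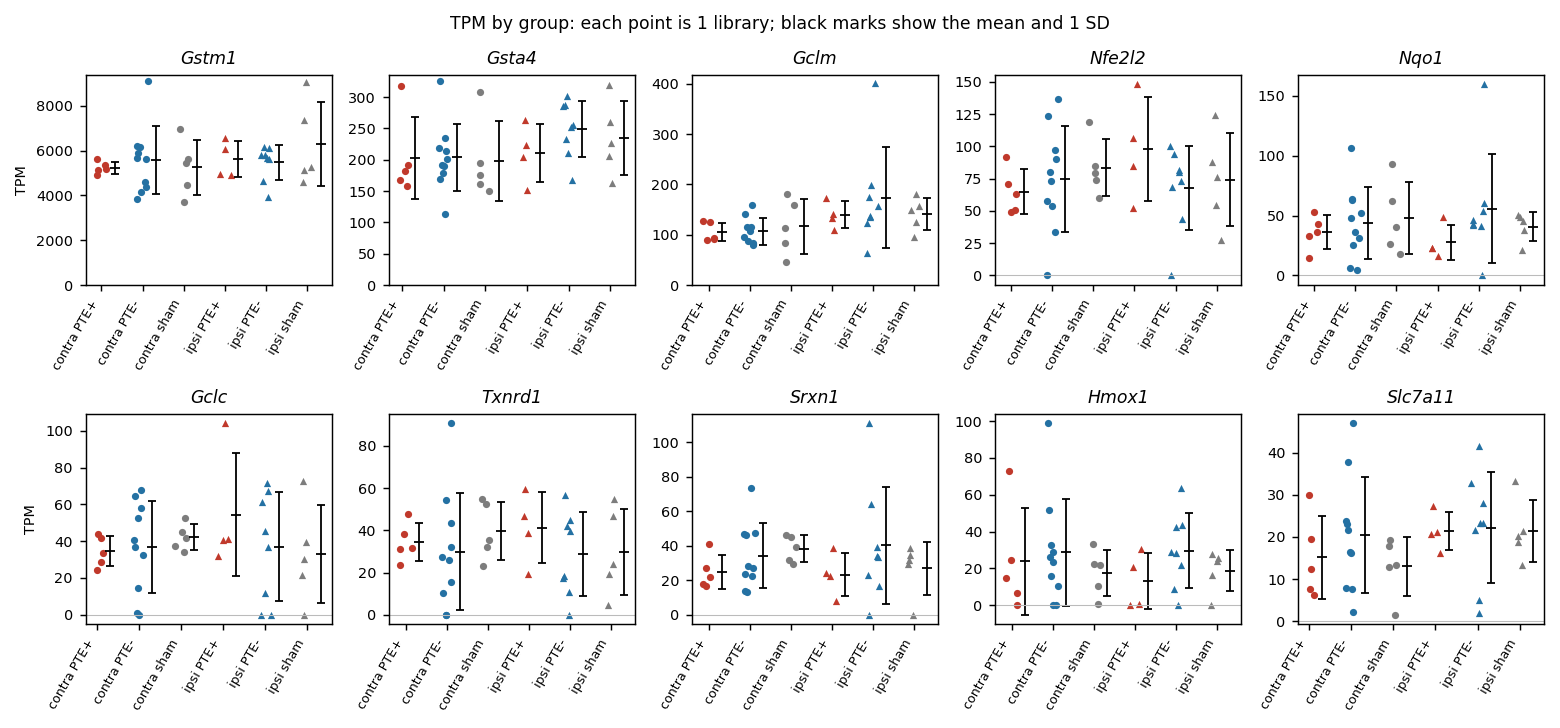
TPM of each gene by group in the contralateral (contra, circles) and ipsilateral (ipsi, triangles) hippocampus; each point is 1 library and the black marks give the mean and 1 SD. In every panel the groups of a hemisphere overlap, with the widest relative spread for Hmox1 and the narrowest for Gstm1.

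Part of this spread comes from libraries in which a gene was not detected at all. Of the 370 values of the 10 genes, 17 were at 3 counts or fewer, the level that a count of 0 cannot be told from, which in these libraries is 0.0528 to 0.119 CPM (counts scaled to the library total). They fell in 9 of 37 libraries and on 6 genes: Hmox1 in 6 libraries, Gclc and Txnrd1 in 3 each, Nfe2l2 and Srxn1 in 2 each and Nqo1 in 1. PTE- libraries held 12 of them, sham libraries 3 and PTE+ libraries 2. In 15 of the 17 cases the library also lacked other genes that are abundant elsewhere, with over 2% of the genes of median count above 1000 at 3 counts or fewer. The ipsilateral PTE- library of mouse a8_11, in which 33.1% of such genes were missing, lacked Nfe2l2, Hmox1, Gclc, Srxn1 and Txnrd1, although the contralateral library of the same mouse held 6535 counts of Nfe2l2, 1475 of Hmox1, 1869 of Gclc, 2432 of Srxn1 and 1137 of Txnrd1. The ipsilateral sham library of mouse a9_9 (12.9% missing) lacked Hmox1, Gclc and Srxn1 against 512, 3925 and 3120 counts on the other side.

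The remaining 2 cases are a different pattern. Hmox1 had 0 counts in both the contralateral and the ipsilateral library of PTE+ mouse a9_18, and these libraries lacked few other genes (0.545% and 0.761%). For the other 4 mice with Hmox1 at 3 counts or fewer in 1 hemisphere, the other hemisphere held between 512 and 1475 counts. Because the lost values are spread unevenly over the groups, each comparison below was also made with the 10 libraries left out in which over 2% of abundant genes were missing, a limit chosen after the data had been seen. They are 5 contralateral PTE- and 1 contralateral sham library, and 1 PTE+, 2 PTE- and 1 sham ipsilateral library.

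The first comparisons ask whether astrocytes of mice that developed epilepsy differ from those of injured mice that did not, and whether either differs from sham, within a hemisphere. No member passed the test in any of these 6 comparisons. With edgeR's quasi-likelihood test on the counts and Benjamini-Hochberg adjustment over all genes tested, 0 of 10 members had an adjusted p under 0.05 in each comparison, and 0 of 10 had an unadjusted p under 0.05. This stands against few calls in the tables as a whole: 0.00683% of 14642 genes (1 gene) passed the adjusted threshold in contralateral PTE+ against PTE-, and 0% in the other 11 comparisons of this report. At the unadjusted threshold 2.21% of genes were called in contralateral PTE+ against PTE-, 1.54% in PTE- against sham and 1.23% in PTE+ against sham. For the ipsilateral comparisons in the same order the shares were 1.75%, 1.58% and 1.66% of 14903 genes. The p-values measure the spread between mice of a group. In bulk RNA, fewer cells of a type and less RNA per cell cannot be told apart.

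In contralateral PTE+ against PTE- the estimates of 9 of 10 members lay below 0, with Txnrd1 above, and their median log2 fold change was -0.33 against -0.05 for all genes tested. The smallest p-values belonged to Srxn1, with a log2 fold change of -0.50 ± 0.39 (SE, 95% interval -1.30 to 0.31, edgeR p = 0.215, adjusted p = 1.0), and to Gstm1, with -0.30 ± 0.24 (SE, -0.81 to 0.20, edgeR p = 0.226, adjusted p = 1.0). For Srxn1 the value was -0.04 without the libraries that lack genes. The count of members below 0 depends on the scale. On log2(TPM + 1) the median of all genes itself shifted to 0.28, 5 members lay on each side of 0, and the members' median was -0.28 relative to that of all genes, as it also was with edgeR. Without the libraries that lack genes, 9 of 10 members again lay below 0 and 2 had an unadjusted p under 0.05, where 4.50% of all genes did. These were Nfe2l2 at -0.57 ± 0.23 (SE, edgeR p = 0.0277, adjusted p = 1.0) and Gclc at -0.59 ± 0.27 (SE, edgeR p = 0.0421, adjusted p = 1.0). In those libraries Nfe2l2 held 65.1 ± 17.4 TPM in PTE+ and 78.9 ± 16.8 TPM in PTE- (SD, n = 5 each).

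In contralateral PTE- against sham 4 members lay above and 6 below 0, with a median of -0.02 against 0.07 for all genes. Gstm1 had 0.25 ± 0.24 (SE, -0.25 to 0.76, edgeR p = 0.309, adjusted p = 1.0), or 0.39 without the libraries that lack genes, and Slc7a11 0.55 ± 0.53 (SE, -0.55 to 1.65, edgeR p = 0.313, adjusted p = 1.0), which was 0.28 without sham mouse a8_16. Without the libraries that lack genes the median was 0.30 and 8 members lay above 0. Srxn1 (-0.63, edgeR p = 0.122) and Txnrd1 (-0.46, edgeR p = 0.147) then lay below 0. In contralateral PTE+ against sham 7 of 10 members lay below 0 (median -0.26 against 0.03). Srxn1 had -0.63 ± 0.44 (SE, -1.55 to 0.28, edgeR p = 0.165, adjusted p = 1.0) and Gclm -0.26 ± 0.36 (SE, -1.0 to 0.48, edgeR p = 0.471, adjusted p = 1.0). Without the libraries that lack genes the median was -0.06, with 8 members below 0, and Gclm was at -0.06. For Srxn1 an exact permutation test of the group labels on log2(CPM + 1) gave p = 0.0397 (two-sided, 5 against 5 mice), the 1 value under 0.05 among 120 such exact tests of the members, and the adjusted exact p over these tests was 0.988. Mouse names begin with a8 or a9, which the labels do not explain. The Srxn1 difference on that scale was -0.91 within a8 mice (2 against 2) and -0.54 within a9 mice (3 against 3).

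In ipsilateral PTE+ against PTE- 4 members lay above and 6 below 0 (median -0.24 against -0.01). This split depends on the setting: 6 lay above 0 on log2(TPM + 0.1) (median 0.09 against 0.40), 5 on log2(TPM + 1) (median -0.06 against 0.25), 2 without the libraries that lack genes (median -0.10 against -0.05) and 0 with limma voom (median -0.16 against -0.05). Gsta4 had -0.45 ± 0.35 (SE, -1.18 to 0.28, edgeR p = 0.213, adjusted p = 1.0), which was -0.28 without PTE- mouse a8_11 and -0.26 without the libraries that lack genes. Nqo1 had -1.31 ± 1.08 (SE, -3.57 to 0.96, edgeR p = 0.241, adjusted p = 1.0), an interval wide enough to hold a more than 8-fold decrease and a rise. Without the libraries that lack genes Nqo1 was at -0.70 (edgeR p = 0.117). In ipsilateral PTE- against sham 6 members lay above 0 (median 0.06 against 0.02), and 4 on log2(TPM + 1) (median -0.14 against -0.05), with Gstm1 at -0.28 ± 0.23 (SE, -0.77 to 0.21, edgeR p = 0.247, adjusted p = 1.0) and Nqo1 at 0.47 ± 0.96 (SE, -1.54 to 2.48, edgeR p = 0.632, adjusted p = 1.0). Without the libraries that lack genes these were -0.45 and 0.11. In ipsilateral PTE+ against sham 6 lay below 0 (median -0.31 against 0.00), and 5 on log2(TPM + 1), where the median was 0.01 against 0.17, with Gstm1 at -0.44 ± 0.28 (SE, -1.03 to 0.15, edgeR p = 0.131, adjusted p = 1.0) and Gsta4 at -0.39 ± 0.38 (SE, -1.18 to 0.40, edgeR p = 0.316, adjusted p = 1.0), which was -0.22 without the libraries that lack genes.

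**Figure D3:**
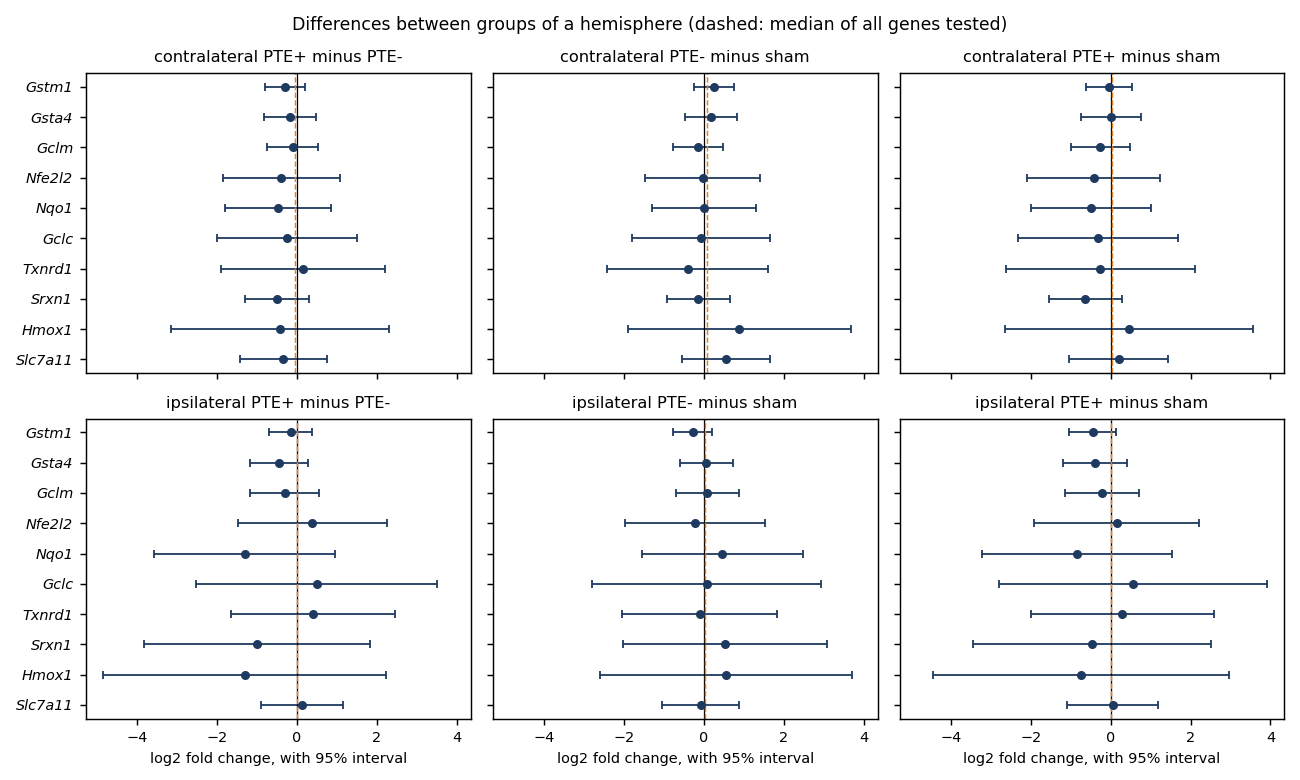
Log2 fold change of each gene with its 95% interval in the 6 comparisons between groups of a hemisphere, from edgeR; the dashed line is the median of all genes tested. Every interval includes 0, and the intervals of Gstm1, Gsta4 and Gclm are several times narrower than those of Hmox1.

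How large a difference could have escaped notice differs between the members. The SE of the log2 fold change was between 0.23 and 0.28 for Gstm1 over the 6 comparisons, and between 1.31 and 1.76 for Hmox1. In contralateral PTE+ against PTE- the intervals of Gstm1, Gsta4 (-0.83 to 0.48) and Gclm (-0.76 to 0.53) leave out a doubling and a halving. That of Hmox1 ran from -3.16 to 2.29, that of Txnrd1 from -1.89 to 2.19 and that of Gclc from -2.0 to 1.5. For these genes this fit does not exclude differences of several fold in either direction. Without the libraries that lack genes the SE was 1.02 for Hmox1, 0.28 for Txnrd1 and 0.27 for Gclc.

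The next comparisons ask whether the injured side differs from the other side within a group, over the 17 mice with both libraries. No member passed the test here either. The edgeR fit over these 34 libraries did not pair the libraries of a mouse. It called 0 of 10 members at either threshold in each group. Of 15731 genes, 2.93% (PTE+), 4.56% (PTE-) and 2.05% (sham) had an unadjusted p under 0.05. With the mouse as a block, 0 of 60 member values, those of the interactions below included, had an adjusted p under 0.05. Gclm came closest, with a log2 fold change ipsilateral over contralateral of 0.52 ± 0.31 (SE, -0.10 to 1.15, edgeR p = 0.0973, adjusted p = 1.0) in PTE- mice. It passed an unadjusted 0.05 with other size factors (0.68, edgeR p = 0.0430) and with DESeq2 (0.68, DESeq2 p = 0.0314), with an adjusted p above 0.05 by both. Without mouse a8_11 it was 0.25 (edgeR p = 0.358), and without the libraries that lack genes 0.04. Gclm was higher on the ipsilateral side in 4 of 4 PTE+, 5 of 8 PTE- and 3 of 5 sham mice, by 0.35 ± 0.30, 0.43 ± 0.68 and 0.41 ± 0.57 in log2(CPM + 1) (SD over mice). The sham mice, which received no impact, had a mean difference between those of the injured groups.

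Slc7a11 and Gsta4 were higher on the ipsilateral side in most mice too, without passing the test. Slc7a11 was higher on the ipsilateral side in 12 of 17 mice, and edgeR gave 0.57 ± 0.64 (SE, -0.74 to 1.88, p = 0.383, adjusted p = 1.0) in PTE+ and 0.84 ± 0.58 (SE, -0.34 to 2.01, p = 0.158, adjusted p = 1.0) in sham mice. Gsta4 was higher there in 13 of 17 mice, among them 5 of 5 sham mice, where an exact sign permutation gave the smallest p that 5 mice allow, 0.0625. The other values with the smallest edgeR p were those of Gclm in PTE+ mice (0.36 ± 0.43, SE, -0.52 to 1.24, p = 0.410, adjusted p = 1.0), of Gstm1 in PTE- mice (-0.22 ± 0.23, -0.68 to 0.24, p = 0.329, adjusted p = 1.0) and of Gstm1 in sham mice (0.37 ± 0.29, -0.21 to 0.95, p = 0.206, adjusted p = 1.0). In 4 PTE+ mice the sign permutation cannot go below 0.125.

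Whether the difference between hemispheres itself differed between groups was tested as an interaction in the same unpaired fit. Here 0 of 10 members had an unadjusted p under 0.05, against 3.13% (PTE- against sham), 2.94% (PTE+ against PTE-) and 2.66% (PTE+ against sham) of all genes. Gstm1 had the smallest p in PTE- against sham (log2 -0.59 ± 0.36, SE, -1.33 to 0.15, edgeR p = 0.113, adjusted p = 1.0) and in PTE+ against sham (-0.34 ± 0.43, -1.21 to 0.53, p = 0.430, adjusted p = 1.0). Slc7a11 followed in the first (-0.45 ± 0.73, -1.94 to 1.04, p = 0.542, adjusted p = 1.0) and Hmox1 in the second (-1.44 ± 2.49, -6.51 to 3.62, p = 0.566, adjusted p = 1.0). In PTE+ against PTE- they were Nfe2l2 (0.89 ± 0.98, -1.11 to 2.89, p = 0.374, adjusted p = 1.0) and Gstm1 (0.25 ± 0.39, -0.54 to 1.05, p = 0.526, adjusted p = 1.0).

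The 17 mice also allow a second question, whether a member's level is shared by both hemispheres of a mouse. Among the 10 members this was seen at an adjusted p under 0.05 for Gsta4 alone. Its log2(CPM + 1) in the 2 libraries of a mouse correlated with Pearson's r = 0.71 (permutation p = 0.00135, adjusted over the 10 members 0.0135) and Spearman's rho = 0.70 (permutation p = 0.00206, adjusted 0.0206) over 17 mice. Without the 2 mice farthest from the contralateral median r was 0.59, and it was 0.78 within the 6 a8 mice and 0.64 within the 11 a9 mice. How many of all genes correlate this way was not computed, so whether Gsta4 is unusual is not known. The correlation was not repeated without the libraries that lack genes. The highest contralateral value in the sham group, 308 TPM in mouse a9_9, met the highest ipsilateral one, 319 TPM in the same mouse. That ipsilateral library lacked 12.9% of abundant genes. Mouse a9_11 was lowest of its group on both sides (150.2 and 163 TPM).

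The other 9 members did not reach an adjusted 0.05. Gstm1 had r = 0.47 (permutation p = 0.0555, adjusted 0.183) and rho = 0.59 (permutation p = 0.0144, adjusted 0.0547), with r = 0.51 within a8 and 0.16 within a9 mice, and Gclm had r = 0.46 (permutation p = 0.0600, adjusted 0.183) and rho = 0.54 (permutation p = 0.0280, adjusted 0.0699), with r = 0.31 and 0.53. Nqo1 had r = 0.23 and rho = 0.58 (permutation p = 0.0164, adjusted 0.0547). For Nfe2l2 r was -0.44 (permutation p = 0.0731, adjusted 0.183), and it stayed negative, at -0.57, without the 2 mice farthest from the median. The remaining 5 genes had r between -0.19 and 0.16. Leaving out the 2 mice farthest from the contralateral median moved r to 0.44 for Gclc, 0.47 for Txnrd1 and 0.46 for Nqo1. By the same step r was 0.55 for Gstm1, 0.41 for Gclm, -0.08 for Hmox1, -0.18 for Srxn1 and -0.10 for Slc7a11. Values near 0 in single libraries enter these correlations for Nfe2l2, Nqo1, Gclc, Txnrd1, Srxn1 and Hmox1, and their part in them was not tested.

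**Figure D4:**
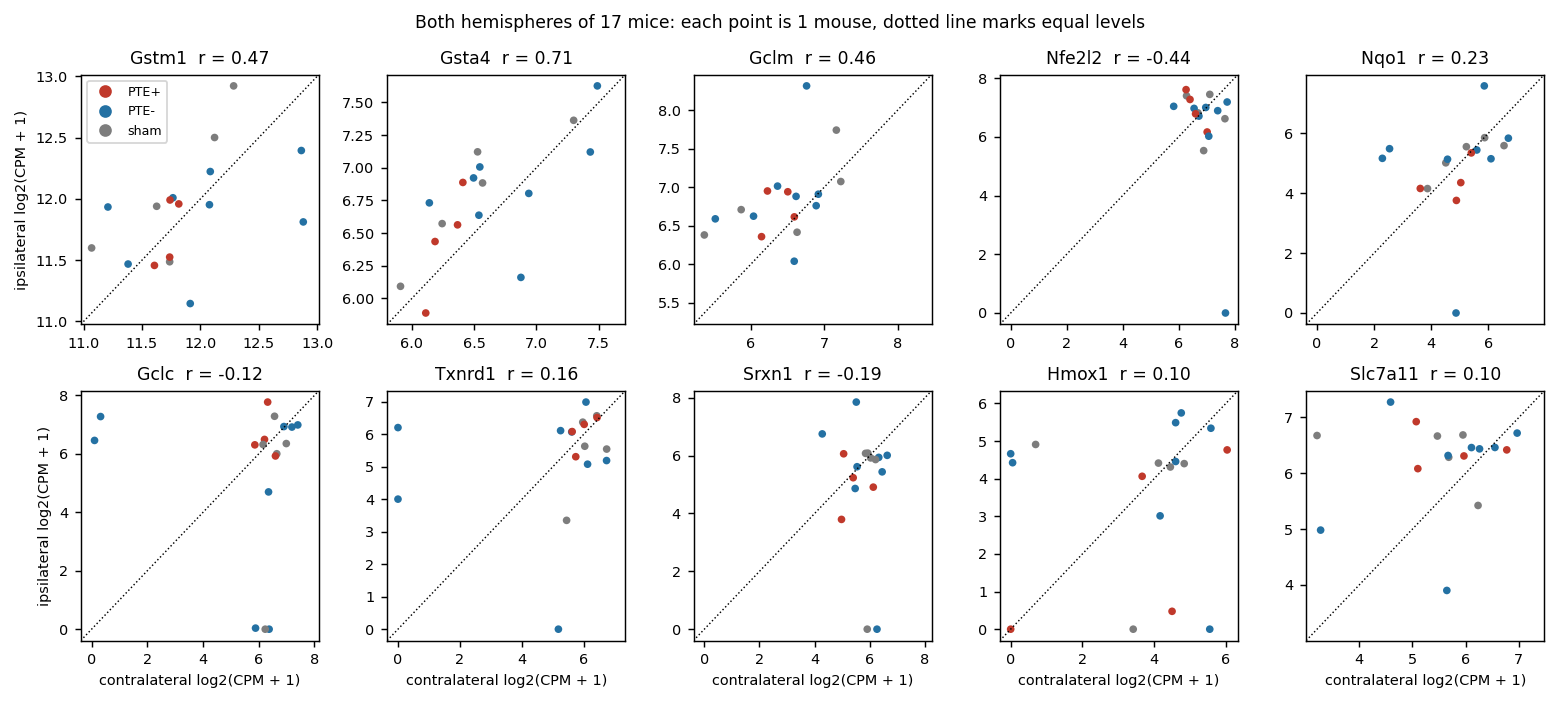
Level of each gene, as log2(CPM + 1), in the contralateral (horizontal axis) and ipsilateral (vertical axis) hippocampus of 17 mice; each point is 1 mouse, the dotted line marks equal levels and r is Pearson's. For Gsta4 the mice follow the line (r = 0.71), while for Gclc, Srxn1 and Hmox1 single mice lie near 0 on 1 axis.

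Around these genes, 91 further genes of the same biology were read from 8 lists, whose results are given as counts and medians. In contralateral PTE+ against PTE-, 87 of them were tested, 66 lay below 0 and 21 above, and their median log2 fold change was -0.22 against -0.05 for all genes. At an unadjusted p under 0.05, 3 were lower and 0 higher, beside 2.21% of all genes called in either direction, and none passed adjustment. The 3 were Gstk1, a mitochondrial and peroxisomal glutathione S-transferase (-0.88 ± 0.27, SE, edgeR p = 0.00387, adjusted p = 1.0), Cbr3, a carbonyl reductase (-0.56 ± 0.25, p = 0.0402, adjusted p = 1.0), and Prdx6, an astrocyte peroxiredoxin (-0.46 ± 0.21, p = 0.0422, adjusted p = 1.0). Gstk1 held 126 ± 36.0 TPM in PTE+ (SD, n = 5), 207 ± 53.7 TPM in PTE- (SD, n = 10) and 174 ± 33.1 TPM in sham libraries (SD, n = 5). Its unadjusted p stayed under 0.05 with other size factors, with limma voom, on both TPM scales and without the libraries that lack genes, at log2 fold changes between -0.87 and -0.67. Those of Cbr3 and Prdx6 were above 0.05 on both TPM scales, and that of Cbr3 also without the libraries that lack genes.

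By list, the glutathione enzymes and transporters stood lowest in this comparison together with the thioredoxin and peroxiredoxin genes. All 15 glutathione genes lay below 0 with edgeR (median -0.36), of which 0 passed an unadjusted 0.05. On log2(TPM + 1) 8 of 15 lay below 0, and all 15 lay below the median of all genes, at a list median of -0.36 relative to it. Of 14 thioredoxin and peroxiredoxin genes 12 lay below 0 (median -0.36), and of 17 further glutathione S-transferases 14 did (median -0.26). The medians were -0.06 for 11 regulators of NRF2 such as Keap1 and Bach1, 0.05 for 8 iron and heme genes, 0.10 for 7 enzymes that supply NADPH, -0.09 for 4 superoxide dismutase and catalase genes and -0.18 for 11 other NRF2 targets. The summed level of 7 endothelial markers had a median of 2466 TPM (958 to 6268) in contralateral PTE+, 1367 TPM (492 to 2722) in PTE- and 1093 TPM (700.1 to 2051) in sham libraries, and its part in these medians was not tested.

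**Figure D5:**
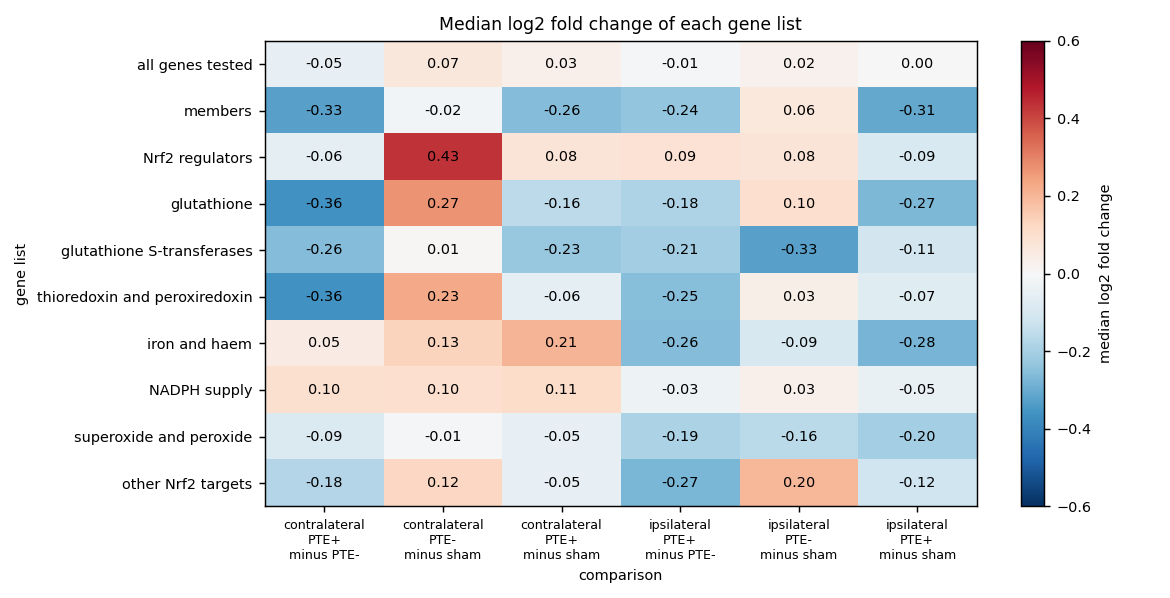
Median log2 fold change (colour and number) of all genes tested, of the 10 members and of each of the 8 wider lists in the 6 comparisons between groups of a hemisphere. In contralateral PTE+ against PTE- the glutathione and the thioredoxin and peroxiredoxin lists are at -0.36, beside -0.05 for all genes.

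In contralateral PTE- against sham 58 of the 87 wider genes lay above 0 (median 0.20 against 0.07), and 1 had an unadjusted p under 0.05, Abcc4, a multidrug transporter (2.59 ± 1.22, SE, edgeR p = 0.0459, adjusted p = 1.0), at a median of 7.60 TPM in PTE- and 1.32 TPM in sham libraries with 1 PTE- library at 124 TPM. The regulators of NRF2 had a median of 0.43, with 9 of 11 above 0. In contralateral PTE+ against sham 0 of 87 passed an unadjusted 0.05, and the 8 iron and heme genes all lay above 0 (median 0.21). At that threshold 1.54% of all genes were called in contralateral PTE- against sham and 1.23% in PTE+ against sham.

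On the ipsilateral side 86 wider genes were tested. In PTE+ against PTE- 0 had an unadjusted p under 0.05, with a median of -0.18 against -0.01. Slc3a2, the heavy chain that carries the Slc7a11 exchanger to the membrane, was the gene named most often, in comparisons that share libraries. Its log2 fold change against sham was -0.45 ± 0.20 (SE, edgeR p = 0.0334, adjusted p = 1.0) in PTE- mice and -0.58 ± 0.24 (SE, edgeR p = 0.0245, adjusted p = 1.0) in PTE+ mice. Its level was 666 ± 123 TPM (SD, n = 8), 685 ± 129 TPM (SD, n = 4) and 854 ± 201 TPM (SD, n = 5) in PTE-, PTE+ and sham libraries. These 2 comparisons share the sham libraries, and on log2(TPM + 1) limma's p-values were 0.0743 and 0.174. In PTE+ against sham Gstm5, a brain glutathione S-transferase, had an unadjusted p under 0.05 as well (-0.77 ± 0.35, edgeR p = 0.0392, adjusted p = 1.0), which makes 2 of 86 wider genes there and 1 of 86 in PTE- against sham. Of all genes, 1.66% and 1.58% were called in these 2 comparisons and 1.75% in PTE+ against PTE-. Gstm5 held 1969 ± 503 TPM (SD, n = 4), 2000 ± 535 TPM (SD, n = 8) and 2804 ± 876 TPM (SD, n = 5) in PTE+, PTE- and sham libraries. Its mean was thus below that of sham in both injured groups.

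Between hemispheres Slc3a2 had an unadjusted p under 0.05 in PTE- mice (log2 ipsilateral over contralateral -0.39 ± 0.16, SE, edgeR p = 0.0191, adjusted p = 0.724), and the difference between hemispheres had one between PTE- and sham mice (-0.54 ± 0.25, p = 0.0410, adjusted p = 1.0). Both results reuse the ipsilateral PTE- libraries that were compared with sham above, so they are not independent of that comparison. In PTE- mice Mgst2, a microsomal transferase, was the second of 89 wider genes under 0.05 (p = 0.0231, adjusted p = 0.800 by edgeR), at 3 counts or fewer in 5 of 8 ipsilateral libraries. In sham mice 1 of 89 passed an unadjusted 0.05, Nfe2l3, which was at 3 counts or fewer in 5 of 5 contralateral and 4 of 5 ipsilateral libraries and for which no fold is given. In the interaction of PTE- against sham 4 of 89 did, against 3.13% of all genes. Beside Slc3a2, named here after its values were seen, they were Nfe2l3, Abcc4 (p = 0.0198) and Prdx3, a mitochondrial peroxiredoxin (-0.95 ± 0.43, p = 0.0329, adjusted p = 1.0). None of the wider genes passed in PTE+ mice or in the other interactions. Between hemispheres 4.56% of all genes had an unadjusted p under 0.05 in PTE- mice and 2.05% in sham mice.

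The libraries held 25371887 to 55333329 counts on the contralateral and 36925501 to 59846479 on the ipsilateral side, with 9020 to 15545 genes detected. Astrocyte markers were present in every library: the 10 genes Aqp4, Gfap, Slc1a2, Slc1a3, Aldh1l1, Gja1, S100b, Aldoc, Atp1b2 and Glul were above 3 counts throughout and summed to a median of 17003 TPM, between 6359 TPM (mouse a8_11, ipsilateral) and 23171 TPM. Markers of other cells were present too, with medians over libraries of 508 TPM for 10 microglial, 1145 TPM for 7 endothelial, 602 TPM for 8 oligodendrocyte, 172 TPM for 7 neuronal and 2409 TPM for 5 erythroid genes. Microglial sums ran from 487 to 928 TPM in contralateral PTE+, 27.1 to 1477 TPM in PTE- and 161 to 908 TPM in sham libraries. Their part in the levels of the 10 genes was not tested.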

How the data were processed

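RNA was amplified by the study with a SMART-Seq V4 ultra-low input kit and sequenced. Per the labels and methods, the authors trimmed reads with Trim Galore 0.6.4, aligned them to mm10 with Bowtie2 2.4.1 and quantified genes with RSEM 1.2.28. Their DESeq2 1.36.0 results were not used here. The annotation release is not given in the sources used here. The authors deposited RSEM expected counts, which are whole numbers in the tables. They also deposited TPM, which the authors' RSEM run scaled for transcript length and library total.

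Counts were tested with edgeR 4.0.16 (quasi-likelihood, filterByExpr, TMM) in R 4.3.3, in 3 fits over 14642 contralateral, 14903 ipsilateral and, for the 17 mice with both hemispheres, 15731 genes. The fit of both hemispheres did not pair the libraries of a mouse, except where the mouse is named as a block. Adjusted p-values are Benjamini-Hochberg values over all genes of a fit. The SE of a log2 fold change is its size divided by the square root of F, and intervals use the t distribution at 95%. Single members were also tested by exact permutation of samples (two-sided) on log2(CPM + 1), and the between-hemisphere correlations by 100000 permutations (SciPy 1.17.1). Figures used matplotlib 3.10.9. The fits were also run on simulated data with known changes. The simulated spread was well below that of the real libraries, whose common biological coefficient of variation was 1.32 (contralateral) and 1.40 (ipsilateral). That run checks the code and does not measure the power to find differences here. Alternatives used limma 3.58.1, DESeq2 1.42.0 and TPM with pseudocounts of 1 and 0.1.

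Samples were grouped by the labels. The 2 libraries of a mouse come from the same animal. The deviations of a mouse's libraries from their group means correlated between -0.07 and 0.24 (median 0.09, different mice -0.01). No 2 libraries were alike in their counts. Depth limits each value: the counting floor was 3 counts, and it covers counting error only.

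The members and lists were chosen with earlier results of these data known. All 10 members are given with their levels. In each comparison fold changes are given for members with an unadjusted p under 0.05 or otherwise for the 2 with the smallest p, and up to 3 genes of the wider lists with an unadjusted p under 0.05 are named.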

Additional observations from a re-analysis of the deposited data

Results flagged for a closer look

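Of 60 groups of 4 to 10 libraries (10 genes in 6 groups), 11 held a library that stood apart by Dixon's criterion on log2(CPM + 1). Chance marks about 1 group in 20. The log scale stretches the distance of a value of 0 from the rest, and the values below are given in CPM. In 9 it was the lowest and in 2 the highest library. Nfe2l2 was at 0 CPM in contralateral PTE- mouse a9_20 (next lowest 56.4 CPM) and at 0 CPM in ipsilateral PTE- mouse a8_11 (next 64.2 CPM). In the same a8_11 library Srxn1 was at 0 CPM (next 28.2 CPM), Txnrd1 at 0 CPM (next 15.2 CPM) and Gclm at 321 CPM (next highest 129 CPM, from 12435 counts), and 33.1% of abundant genes were missing there.

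Nqo1 was at 0 CPM in ipsilateral PTE- mouse a8_14 (next 34.3 CPM, 13.1% of abundant genes missing). In ipsilateral sham mouse a9_9 (12.9% missing) Hmox1 was at 0 CPM (next 18.9 CPM), Gclc at 0 CPM (next 63.4 CPM) and Srxn1 at 0 CPM (next 57.4 CPM). Slc7a11 was at 8.15 CPM in contralateral sham mouse a8_16 (next 43.2 CPM, 5.84% missing). Gsta4 was at 171 CPM in contralateral PTE+ mouse a8_17 (next highest 83.0 CPM), in a library that lacked 0.136% of abundant genes. The difference between hemispheres did not pass an exact test between groups for any member in 30 such tests.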

How the results depend on the processing

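No member reached an adjusted p under 0.05 under any setting, and the smallest adjusted p was 0.717 (DESeq2). Among the fold changes named for single members, 621 values under alternatives kept their direction and their side of an unadjusted 0.05, 3 newly passed it and 6 changed sign. Those that changed sign were Srxn1 in contralateral PTE+ against PTE- (0.0067 with voom), Gclm in contralateral PTE+ against sham (0.0082 with voom) and Nqo1 in ipsilateral PTE- against sham, at -0.14 with DESeq2, -0.21 on log2(TPM + 1), -0.62 on log2(TPM + 0.1) and, with single mice left out, between -0.13 (without PTE- mouse a8_11) and 0.66. The cause was not tested. The members' median in contralateral PTE+ against PTE- was -0.0015 on log2(TPM + 1) and -0.0014 on log2(TPM + 0.1), where that of all genes was 0.28 and 0.47. On the same scales it was 0.014 and 0.015 in ipsilateral PTE+ against sham, -0.06 and 0.09 in ipsilateral PTE+ against PTE-, and -0.14 and -0.22 in ipsilateral PTE- against sham. In contralateral PTE- against sham it was 0.30 with the libraries that lack genes left out, a setting chosen after seeing the data. The count of members with an unadjusted p under 0.05 was 2 with that setting in contralateral PTE+ against PTE-, 1 with voom in contralateral PTE- against sham (Srxn1), 1 with RLE size factors and 1 with DESeq2 between hemispheres of PTE- mice (Gclm), and between 0 and 1 with single mice left out in ipsilateral PTE+ against PTE- (Nqo1 without PTE- mouse a8_14). With the mouse as a replicate block the members' median between hemispheres was 0.14 in PTE+, 0.22 in PTE- and -0.05 in sham mice, against 0.17, 0.20 and 0.07 without it, and no call changed. Libraries in which genes were not detected limit the precision for Hmox1, Gclc, Txnrd1, Srxn1, Nqo1 and Nfe2l2.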
